A study of Homo sapiens with 12 samples.

Results

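Amino acid transporters are the membrane carriers that bring amino acids into the cell and pass them on to lysosomes and mitochondria. A list of 40 such genes was followed here, out of the 60648 genes of the count table: members of the SLC1, SLC3, SLC6, SLC7, SLC36, SLC38 and SLC43 families, the mitochondrial SLC25 carriers of amino acids, and the sideroflexins. Members were chosen by name, as carriers of the plasma membrane, lysosome and mitochondrion, and all 40 were found in the table. The libraries came from HCT116, a human colon carcinoma line, and were made by poly-A selection. They form 4 groups of 3 libraries: MTHFD2-WT (wild type) cells at the initial harvest, MTHFD2-WT cells at the final harvest, and MTHFD2-KO (knock-out) cells at the same harvests. The knock-out was made with CRISPR-Cas9 and is 1 isolated clone, harvested soon after it was made (initial) and again after 2 months of culture (final). All groups were grown in DMEM with fetal bovine serum and antibiotics. Since the knock-out is 1 clone, the loss of MTHFD2 and other properties of that clone cannot be told apart. The series calls its replicates biological without saying what separates them, so p-values measure the spread between these libraries only.

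Carriers differ in what they move and in what drives them. Some exchange 1 amino acid for another, some are driven by sodium or protons, and the light chains of the SLC7 family reach the cell surface only when bound to a heavy chain of the SLC3 family. MTHFD2 is a mitochondrial enzyme of folate metabolism that uses 1-carbon units derived mainly from serine. The transcription factor ATF4 is made when amino acids are short or the integrated stress response is active, and it switches on genes of amino acid synthesis together with several carriers. Tumour lines such as HCT116 depend on glutamine, cystine, serine and leucine taken up through these proteins.

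Library totals ran from 38597809 to 40017561 counts. Levels are given as CPM, read counts scaled to library size with TMM factors, and 18289 genes passed the filter on low counts, 37 of the 40 members among them. MTHFD2, the targeted gene, had 319 to 457 CPM in the 6 wild-type libraries and 123 to 155 CPM in the 6 knock-out libraries. The epithelial markers EPCAM, CDH1, KRT8, KRT18, KRT19 and CDX2 were present, while VIL1 had at most 12 counts in a library. As a summed level, the 7 epithelial markers lay between 2624 and 3232 CPM for wild type and between 2214 and 2705 CPM in the knock-out. CD3E, DCN and LUM were at 0 in every library and PTPRC had at most 2 counts. Of the 6 tested epithelial markers 2 were lower in the knock-out initially (33.3%) and 4 finally (66.7%). Of all tested genes 11.3% and 10.2% were lower. The 4 fibroblast markers summed to 56.2 to 78.0 CPM in wild-type and 36.5 to 58.0 CPM in knock-out libraries, nearly all of it COL1A1, and their part in the results was not tested. The members' values moved together within groups: replicate 1 of the initial wild type held the highest value of 23 of the 37 tested members, replicate 1 of the final wild type of 30, replicate 1 of the initial knock-out of 25 and replicate 2 of the final knock-out of 28. Over all tested genes those libraries were the highest in 39.2%, 40.2%, 36.6% and 38.4%. The part of this spread in the results below was not tested beyond leaving each library out.

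The carriers spanned a wide range of transcript levels. Divided by exonic length, SLC38A2 was the most abundant at 334 CPM per kb (mean of the 12 libraries), followed by SLC7A5 at 271 CPM per kb, SLC1A5 at 148 CPM per kb and SLC3A2 at 117 CPM per kb. SLC38A2 is a sodium-driven carrier of small neutral amino acids, SLC7A5 is the leucine and large neutral amino acid exchanger known as LAT1, SLC1A5 is the glutamine and neutral amino acid exchanger known as ASCT2, and SLC3A2 is the heavy chain that carries SLC7A5 to the surface. Together with SLC38A1 and SLC7A1 they held the same 6 ranks in each of the 4 groups. SLC38A2 ranged from 231 to 492 CPM per kb over the libraries and SLC7A5 from 210.0 to 362, so that these ranges overlap. The ranges of SLC1A5 and SLC3A2 overlap too. All these ranges pool both genotypes. Within every single library SLC1A5 stayed above SLC3A2. SLC7A5 exceeded SLC38A2 in replicate 2 of the initial wild type and of the initial knock-out, and lay below it in all other libraries. At the other end, SLC3A1 (at most 4 counts in a library), SLC6A14 (at most 4) and SLC38A4 (at most 3) did not pass the filter and were not tested. SLC3A1 is the heavy chain of the renal cystine carrier, SLC6A14 is a broad neutral and cationic carrier, and SLC38A4 is a system A carrier best known from liver. SLC1A2 and SLC7A7 passed the filter at low levels, with 0.642 to 1.51 and 0.287 to 0.830 CPM.

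**Figure D1:**
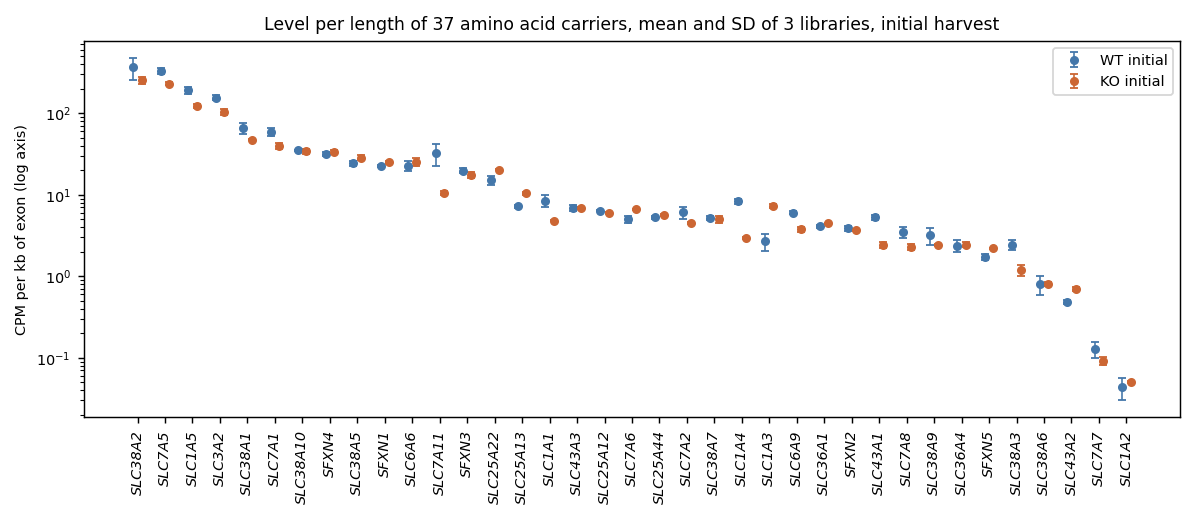
Level of 37 carriers in CPM per kb of exon (vertical, log axis) in the initial wild type and the initial knock-out, ordered by the mean over all 12 libraries; points are means and bars SDs of 3 libraries. SLC38A2, SLC7A5, SLC1A5 and SLC3A2 stand highest in both genotypes, and the points of SLC7A11, SLC1A4 and SLC1A3 are among those that lie apart.

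Whether the loss of MTHFD2 went with different carrier transcripts was asked at each harvest. At the initial harvest 20 of the 37 tested carriers differed between the genotypes at an adjusted p under 0.05 in edgeR's quasi-likelihood test, 14 lower and 6 higher in the knock-out, where 19.9% of all tested genes were called (11.3% lower and 8.55% higher). At the final harvest 16 differed, 14 lower and 2 higher, against 18.5% of all tested genes (10.2% lower and 8.38% higher). Without the final wild-type replicate 1 the final count was 11 lower and 6 higher, the added ones being SLC7A6, SLC38A5, SLC43A2 and SLC43A3. The carriers lower at both harvests numbered 11 of 37, or 29.7%, against 6.35% of all tested genes, and 2 were higher at both (4.18% of all tested genes). Group ranges did not overlap in 24 members initially and 23 finally, against 35.5% and 33.1% of all tested genes. The median log2 fold change of the 37 was -0.07 initially and -0.02 finally, beside 0.00 for all tested genes at either. In bulk RNA, fewer cells that use a carrier and less of its RNA per cell cannot be told apart.

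Most differences were moderate. At least 2-fold differences were called for 4 lower carriers (SLC1A4, SLC7A11, SLC38A3 and SLC43A1) and 1 higher carrier (SLC1A3) at the initial harvest, where 4.77% of all tested genes reached that size, and for SLC1A3 alone at the final harvest (5.02% of all tested genes). Averaged over both harvests, 23 carriers differed, 17 lower and 6 higher, against 30.1% of all tested genes (16.1% lower and 14% higher). No carrier was called in opposite directions at the 2 harvests. The harvests share no library, but they share the 1 knock-out clone and the estimate of spread in the model. The 2 comparisons are therefore not independent.

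**Figure D2:**
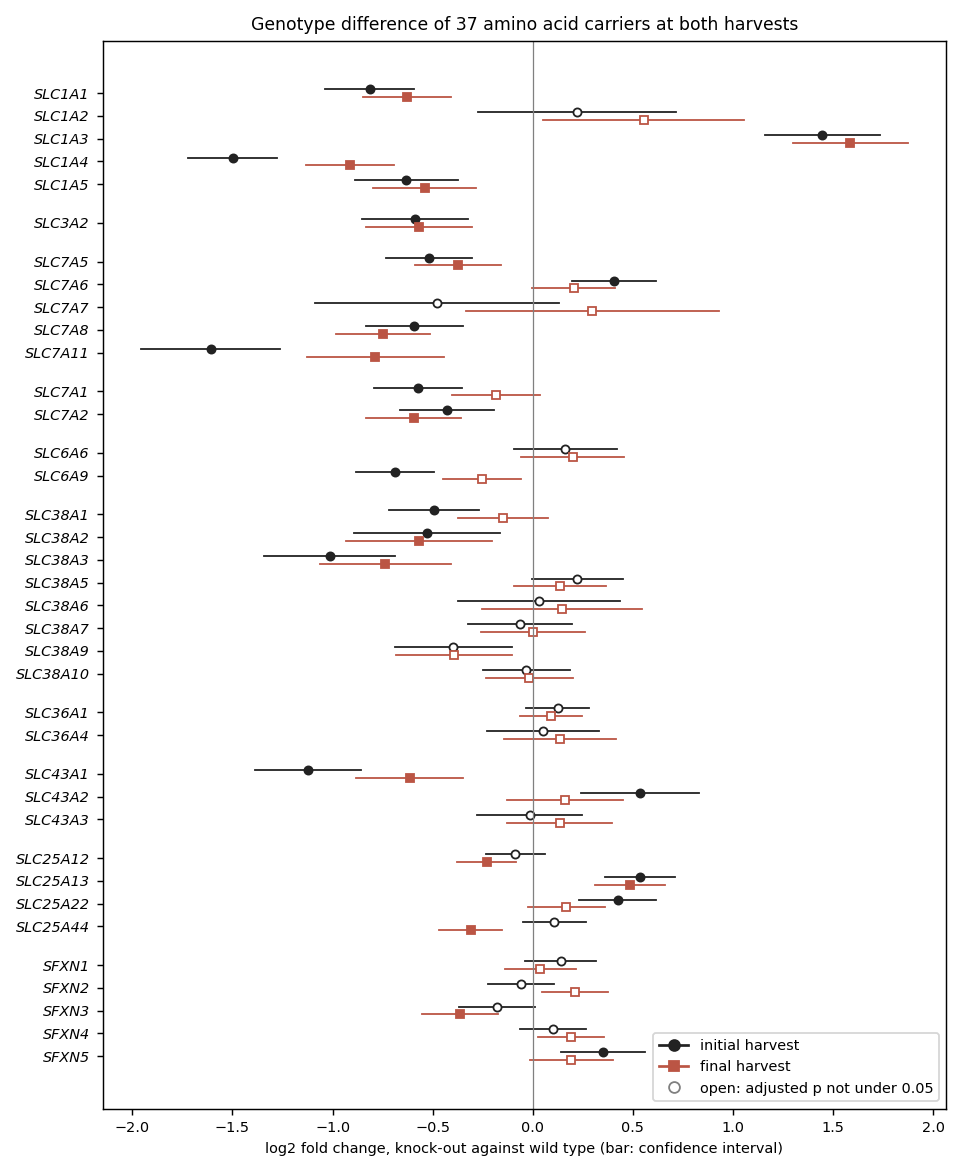
Log2 fold change of each tested carrier, knock-out against wild type (horizontal), with its 95% interval, at the initial (circles) and final harvest (squares); filled symbols passed an adjusted p of 0.05 and rows are spaced by family. SLC1A4, SLC7A11 and SLC43A1 lie farthest to the left at the initial harvest and SLC1A3 is alone at the far right.

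The SLC1 family holds the sodium-coupled glutamate carriers (SLC1A1, SLC1A2, SLC1A3) and the neutral exchangers (SLC1A4, SLC1A5). The 2 neutral exchangers and SLC1A1 were lower in the knock-out at both harvests, and SLC1A3 was higher. SLC1A4 (ENSG00000115902.11, GRCh38 chromosome 2, 64988477 to 65023865, plus strand), also called ASCT1, exchanges alanine, serine and cysteine. In SLC1A4, the wild type had 61.4, 59.6 and 53.6 CPM in its 3 initial libraries and 45.5, 34.9 and 38.6 CPM in its 3 final ones, and the knock-out had 21.4, 19.9 and 20.4 CPM initially and 19.7, 23.4 and 20.1 CPM finally. Every knock-out library lay below every wild-type library. Its log2 fold change was -1.50 (adjusted p 4.2e-08, SE 0.10) at the initial harvest, or 35.4% of the wild-type level, and -0.91 (adjusted p 8.52e-06, SE 0.10) at the final harvest. Its paralog SLC1A5 (ENSG00000105281.12, GRCh38 chromosome 19, 46774883 to 46788594, minus strand) had smaller log2 fold changes, a difference that was not tested. In SLC1A5, the wild type had 687, 657 and 567 CPM in its 3 initial libraries and 678, 485 and 488 CPM in its 3 final ones, and the knock-out had 438, 407 and 388 CPM initially and 355, 393 and 387 CPM finally. Again no knock-out library reached the wild-type range, and replicate 1 of the final wild type stood well above the other two of its group. The change was -0.63 (adjusted p 0.0014, SE 0.12) initially and -0.54 (adjusted p 0.0045, SE 0.12) at the final harvest.

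Of the glutamate carriers, SLC1A1 and SLC1A3 were called in opposite directions. SLC1A1 (ENSG00000106688.12, GRCh38 chromosome 9, 4490468 to 4587469, plus strand), also called EAAC1, takes up glutamate, aspartate and cysteine. In SLC1A1, the wild type had 37.1, 27.3 and 36.4 CPM in its 3 initial libraries and 37.4, 36.2 and 36.5 CPM in its 3 final ones, and the knock-out had 19.4, 19.0 and 18.9 CPM initially and 22.0, 25.0 and 24.2 CPM finally. All 6 knock-out libraries were below all 6 wild-type libraries, with changes of -0.81 (adjusted p 3.31e-05, SE 0.10) and -0.63 (adjusted p 0.000369, SE 0.10). SLC1A3 (ENSG00000079215.15, GRCh38 chromosome 5, 36596588 to 36688334, plus strand), known as GLAST in the brain, takes up glutamate and aspartate. In SLC1A3, the wild type had 71.5, 45.8 and 54.1 CPM in its 3 initial libraries and 56.6, 47.1 and 45.0 CPM in its 3 final ones, and the knock-out had 167, 149 and 151 CPM initially and 145, 164 and 138 CPM finally. The lowest knock-out library held more than the highest wild-type library. It rose 2.73-fold at the initial harvest (log2 fold change 1.45, adjusted p 1.03e-06, SE 0.13) and 3.00-fold at the final harvest (1.59, adjusted p 3.26e-07, SE 0.14), the largest rise among the 37. Per length, the ratio of SLC1A3 to SLC1A1 was 0.318 ± 0.0416 in the initial and 0.253 ± 0.0273 in the final wild type, and 1.52 ± 0.0732 and 1.18 ± 0.0975 in the knock-out (SD, n = 3). On this scale SLC1A1 was the higher of the pair in wild-type and SLC1A3 in knock-out cells. That order rests on the deposited exonic lengths, 21227 bases for SLC1A3 and 3974 for SLC1A1. In undivided CPM SLC1A3 was the higher in every library of both genotypes. SLC1A2, the main glutamate carrier of astrocytes, was not called (0.22 and 0.55).

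The heterodimeric carriers pair the heavy chain SLC3A2, known as CD98, with a light chain of the SLC7 family. Of the 5 light chains tested, 3 were lower at both harvests and SLC7A6 was higher at the initial harvest. SLC3A2 (ENSG00000168003.18, GRCh38 chromosome 11, 62856004 to 62888880, plus strand) was lower as well. In SLC3A2, the wild type had 1039.6, 1034 and 912 CPM in its 3 initial libraries and 994, 703 and 695 CPM in its 3 final ones, and the knock-out had 721, 654 and 609.6 CPM initially and 509.7, 565 and 539 CPM finally. Within each harvest the genotypes did not overlap, although the initial knock-out and the final wild type did. The change was -0.59 (adjusted p 0.00305, SE 0.13) and -0.57 (adjusted p 0.00398, SE 0.13), and without the final wild-type replicate 1 the final value was -0.38, still past the threshold. SLC7A5 (ENSG00000103257.9, GRCh38 chromosome 16, 87830023 to 87869507, minus strand) exchanges intracellular glutamine for leucine and other large amino acids. In SLC7A5, the wild type had 1487, 1726 and 1509 CPM in its 3 initial libraries and 1567, 1333 and 1319.6 CPM in its 3 final ones, and the knock-out had 1086, 1155 and 1059.6 CPM initially and 1000.3, 1139 and 1120.5 CPM finally. The ranges were again separate, with -0.52 (adjusted p 0.00164, SE 0.10) initially and -0.37 (adjusted p 0.0158, SE 0.10) at the final harvest. The final call was lost without the final wild-type replicate 1 (-0.29) or the final knock-out replicate 1 (-0.32); over the 18 alternatives its adjusted p ran from 0.00134 to 0.0882. The pseudogene copies SLC7A5P1 and SLC7A5P2 had 0 counts in every library, and the treatment of reads that match several places is not stated, so the level of SLC7A5 is uncertain to that extent.

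SLC7A11 (ENSG00000151012.13, GRCh38 chromosome 4, 138164097 to 138242349, minus strand), called xCT, exports glutamate in exchange for cystine and so supplies cysteine for glutathione. In SLC7A11, the wild type had 417, 239.8 and 274 CPM in its 3 initial libraries and 239.8, 219 and 228 CPM in its 3 final ones, and the knock-out had 108, 102 and 95.0 CPM initially and 141, 149 and 108 CPM finally. Every knock-out library lay below every wild-type library, and replicate 1 of the initial wild type was far above the other two of its group. The log2 fold change of -1.61 (adjusted p 2.96e-06, SE 0.16) at the initial harvest, or 32.8% of the wild-type level, was the largest fall among the 37, and it was -0.79 (adjusted p 0.00232, SE 0.16) at the final harvest. Without replicate 1 of the initial wild type the initial value was -1.34, still past the threshold. As a share of the 5 light chains per length, SLC7A11 made up 8.73 ± 2.84% and 7.21 ± 0.400% in the initial and final wild type, and 4.21 ± 0.258% and 5.48 ± 0.995% in the knock-out (SD, n = 3). SLC7A8 (ENSG00000092068.20, GRCh38 chromosome 14, 23125295 to 23183674, minus strand), called LAT2, carries large and small neutral amino acids across epithelia. In SLC7A8, the wild type had 24.0, 17.6 and 20.5 CPM in its 3 initial libraries and 32.9, 27.4 and 28.4 CPM in its 3 final ones, and the knock-out had 13.6, 14.8 and 12.8 CPM initially and 16.5, 18.3 and 18.0 CPM finally. The knock-out was lower at each harvest without overlap, by -0.59 (adjusted p 0.00139, SE 0.11) and -0.75 (adjusted p 0.000148, SE 0.11). SLC7A6, a light chain that exchanges arginine for neutral amino acids, rose from 38.1 ± 3.74 CPM to 50.5 ± 1.02 CPM at the initial harvest (SD, n = 3, log2 fold change 0.41, adjusted p 0.00746, SE 0.10) and was not called at the final harvest (0.21, 95% interval -0.00 to 0.41; 0.31 and called without the final wild-type replicate 1). SLC7A7, the scarcest light chain, was not called (-0.48 and 0.30). The ratio of SLC3A2 to the summed light chains, per length, was 0.420 ± 0.0225 in the initial wild type and 0.413 ± 0.0355 in the initial knock-out, and 0.375 ± 0.0428 and 0.334 ± 0.00560 at the final harvest (SD, n = 3). Its ranges overlapped between genotypes at the initial harvest and not at the final one.

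The cationic carriers SLC7A1 and SLC7A2 bring in arginine, lysine and ornithine without a heavy chain. SLC7A2 (ENSG00000003989.18, GRCh38 chromosome 8, 17497088 to 17570573, plus strand) was lower at both harvests. In SLC7A2, the wild type had 57.0, 40.4 and 47.3 CPM in its 3 initial libraries and 53.0, 49.7 and 52.2 CPM in its 3 final ones, and the knock-out had 36.7, 35.7 and 35.2 CPM initially and 33.4, 38.6 and 30.6 CPM finally. No knock-out library reached a wild-type library, and the changes were -0.43 (adjusted p 0.0119, SE 0.11) and -0.59 (adjusted p 0.00114, SE 0.11). The initial call was lost without the initial wild-type replicate 1 (-0.29), with an adjusted p of 0.000807 to 0.0629 over the 18 alternatives. SLC7A1, the main arginine carrier of growing cells, fell at the initial harvest from 457 ± 49.5 CPM to 307 ± 24.3 CPM (SD, n = 3, -0.57, adjusted p 0.00087, SE 0.10). At the final harvest it had 360.4 ± 40.3 CPM and 317 ± 20.2 CPM and was not called (-0.18, 95% interval -0.40 to 0.04).

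Of the 3 sodium and chloride coupled carriers, SLC6A9 fell at the initial harvest. SLC6A9 (ENSG00000196517.13, GRCh38 chromosome 1, 43991500 to 44031467, minus strand), known as GlyT1, takes up glycine. In SLC6A9, the wild type had 32.6, 32.9 and 30.0 CPM in its 3 initial libraries and 24.1, 23.0 and 21.5 CPM in its 3 final ones, and the knock-out had 20.9, 20.1 and 18.2 CPM initially and 17.3, 20.4 and 19.9 CPM finally. The initial wild type stood apart from the 3 other groups, and the final genotypes did not overlap either. The change was -0.69 (adjusted p 4.62e-05, SE 0.09) at the initial harvest and -0.25 (adjusted p 0.0689, SE 0.09), not called, at the final harvest. Its exons overlap CCDC24 on the other strand, which had 12441 counts over the 12 libraries against 11093 for SLC6A9, so the level of SLC6A9 is uncertain without the strand setting. SLC6A6, the taurine carrier, was not called (0.16 and 0.20).

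The SLC38 family holds the sodium-driven carriers of glutamine, alanine and other small neutral amino acids. Of its 8 tested members, 3 were lower at the initial harvest (SLC38A1, SLC38A2 and SLC38A3) and 2 of them at the final harvest. SLC38A2 (ENSG00000134294.14, GRCh38 chromosome 12, 46358188 to 46372773, minus strand) had the highest counts. In SLC38A2, the wild type had 3200.3, 1802 and 2206 CPM in its 3 initial libraries and 3123, 2557 and 2617 CPM in its 3 final ones, and the knock-out had 1857, 1504 and 1633 CPM initially and 1919, 2089 and 1593 CPM finally. The genotypes overlapped at the initial harvest, where replicate 2 of the wild type fell inside the knock-out range, and did not overlap at the final harvest. The changes were -0.53 (adjusted p 0.0396, SE 0.17) and -0.57 (adjusted p 0.0292, SE 0.17). Both calls depended on single libraries. The initial call was lost without the initial wild-type replicate 1 (-0.27), the initial wild-type replicate 3 (-0.59), the initial knock-out replicate 2 (-0.46), the initial knock-out replicate 3 (-0.52) or the final knock-out replicate 1 (-0.52), and the final call without the final wild-type replicate 1 (-0.47), the final knock-out replicate 1 (-0.59) or the final knock-out replicate 3 (-0.47); the initial call was also lost with only the groups compared (adjusted p 0.0627). Adjusted p ran from 4.92e-06 to 0.225 and from 4.87e-07 to 0.108 over the 18 alternatives. SLC38A3 (ENSG00000188338.15, GRCh38 chromosome 3, 50205246 to 50221486, plus strand), a glutamine, histidine and asparagine carrier called SNAT3, was scarcer. In SLC38A3, the wild type had 11.1, 8.38 and 9.44 CPM in its 3 initial libraries and 10.5, 7.66 and 8.02 CPM in its 3 final ones, and the knock-out had 5.52, 4.69 and 4.11 CPM initially and 4.86, 5.97 and 4.87 CPM finally. Its 6 knock-out values were all under its 6 wild-type values, with changes of -1.01 (adjusted p 0.000176, SE 0.15) and -0.74 (adjusted p 0.00272, SE 0.15). SLC38A1, a glutamine carrier, fell at the initial harvest from 667 ± 105 CPM to 474 ± 5.70 CPM (SD, n = 3, -0.49, adjusted p 0.00321, SE 0.11) and was not called at the final harvest (-0.15, 95% interval -0.37 to 0.08).

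The other SLC38 members were not called by edgeR at either harvest, though SLC38A9 was close to the threshold. SLC38A9, the lysosomal arginine sensor that signals to mTORC1, had -0.40 (adjusted p 0.0539) and -0.39 (adjusted p 0.0558) and was called lower on the average of both harvests by edgeR (-0.40, adjusted p 0.00528, SE 0.10). The single-harvest values of SLC38A9 were called with all libraries by DESeq2 (adjusted p 0.0385 initially and 0.0406 finally), with the replicate number as a block (0.0361 and 0.0332) and without a filter on low counts (0.00429 and 0.00351). At the final harvest SLC38A9 was also called with only the groups compared (0.0217) and without both wild-type libraries numbered 1. They were called as well without the initial wild-type replicate 2 (-0.56) or the final wild-type replicate 1 (-0.40) for the initial harvest and without the initial wild-type replicate 1 (-0.40) or the initial wild-type replicate 2 (-0.40) for the final one; adjusted p ran from 0.003 to 0.285 and from 0.00351 to 0.169 over the alternatives. Without both wild-type libraries numbered 1 the average was -0.26, still called. SLC38A5, SLC38A6, SLC38A7 and SLC38A10 lay between -0.07 and 0.22 at the initial harvest. Exons of SLC38A6 overlap other genes on both strands. The largest of these had 21243 counts over the 12 libraries against 2105 for SLC38A6, so the level of SLC38A6 is uncertain. SLC38A5 was called at the final harvest when the final wild-type replicate 1 was left out (0.29). The SLC36 members SLC36A1, a proton-driven carrier of lysosomes (0.12 and 0.09) and SLC36A4 (0.05 and 0.13) were not called.

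The SLC43 carriers differed among themselves. SLC43A1 (ENSG00000149150.9, GRCh38 chromosome 11, 57484534 to 57515780, minus strand), called LAT3, moves leucine and other large neutral amino acids without sodium. In SLC43A1, the wild type had 18.7, 19.9 and 17.3 CPM in its 3 initial libraries and 14.8, 11.7 and 12.6 CPM in its 3 final ones, and the knock-out had 8.78, 9.22 and 7.68 CPM initially and 7.55, 10.1 and 7.89 CPM finally. The 6 knock-out libraries lay below the 6 wild-type libraries, with the lowest wild-type value close above the highest knock-out value. The change was -1.12 (adjusted p 6.95e-06, SE 0.12) at the initial harvest, 45.9% of the wild-type level, and -0.61 (adjusted p 0.00234, SE 0.13) at the final harvest. SLC43A2, or LAT4, has the same kind of substrates and rose at the initial harvest, from 5.16 ± 0.313 CPM to 7.49 ± 0.417 CPM (SD, n = 3, 0.54, adjusted p 0.0112, SE 0.14). That call was lost without the initial wild-type replicate 3 (0.50), with an adjusted p of 0.00143 to 0.0544 over the alternatives. At the final harvest it was not called (0.16), but it was without the final wild-type replicate 1 (0.36). SLC43A3, known as a purine base carrier, was not called (-0.02 and 0.13), but it was without the final wild-type replicate 1 at the final harvest (0.32).

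The mitochondrial carriers showed small differences. SLC25A13 and SLC25A12 are the aspartate and glutamate exchangers citrin and aralar of the malate-aspartate shuttle, and the 2 paralogs were called in opposite directions at the final harvest. SLC25A13 (ENSG00000004864.14, GRCh38 chromosome 7, 96120220 to 96322147, minus strand) rose. In SLC25A13, the wild type had 26.4, 28.4 and 25.5 CPM in its 3 initial libraries and 25.9, 26.0 and 27.1 CPM in its 3 final ones, and the knock-out had 40.1, 37.2 and 38.9 CPM initially and 39.2, 37.7 and 33.7 CPM finally. Every knock-out library exceeded every wild-type library, with changes of 0.53 (adjusted p 0.000179, SE 0.08) and 0.49 (adjusted p 0.000438, SE 0.08). SLC25A12 was lower at the final harvest, 36.7 ± 0.762 CPM against 43.0 ± 1.17 CPM (SD, n = 3, -0.23, adjusted p 0.0292, SE 0.07), and was not called at the initial one (-0.09). That call was lost without the final wild-type replicate 1 (-0.21), the final wild-type replicate 2 (-0.26), the final wild-type replicate 3 (-0.24), the final knock-out replicate 1 (-0.25), the final knock-out replicate 2 (-0.22) or the final knock-out replicate 3 (-0.24), with an adjusted p of 0.00668 to 0.17 over the 18 alternatives. With all libraries the SLC25A12 call was also lost with the replicate number as a block (adjusted p 0.051), with only the groups compared (0.0952) and without a filter (0.17). The ratio of SLC25A13 to SLC25A12, per length, was 1.13 ± 0.0791 and 1.01 ± 0.0383 in the initial and final wild type and 1.74 ± 0.0955 and 1.66 ± 0.126 in the knock-out (SD, n = 3), without overlap between the genotypes.

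SLC25A22, a glutamate carrier of the inner membrane, rose at the initial harvest from 69.9 ± 8.73 CPM to 93.7 ± 2.06 CPM (SD, n = 3, 0.42, adjusted p 0.00318, SE 0.09) and was not called at the final harvest (0.17, 95% interval -0.03 to 0.36). SLC25A44 (ENSG00000160785.14, GRCh38 chromosome 1, 156193932 to 156212796, plus strand) carries branched-chain amino acids into mitochondria. In SLC25A44, the wild type had 37.3, 40.9 and 37.5 CPM in its 3 initial libraries and 46.9, 49.1 and 46.7 CPM in its 3 final ones, and the knock-out had 42.9, 40.6 and 41.1 CPM initially and 39.8, 38.5 and 36.9 CPM finally. The final wild type was the group that stood apart, above the other 3. The genotypes differed at the final harvest (-0.31, adjusted p 0.00714, SE 0.07) and not by the test at the initial one (0.11, 95% interval -0.05 to 0.27). The sideroflexins include SFXN1, the mitochondrial serine carrier that feeds folate metabolism in this organelle. SFXN1 itself was not called: initial levels were 168 ± 3.44 CPM (wild type) and 185 ± 8.57 CPM (knock-out), and final levels 178 ± 13.8 CPM and 183 ± 15.2 CPM (SD, n = 3), with 95% intervals of the log2 fold change of -0.04 to 0.32 and -0.14 to 0.22. SFXN3, a close paralog of SFXN1, was lower at the final harvest (101 ± 9.85 CPM against 78.2 ± 3.26 CPM, -0.36, adjusted p 0.00875, SE 0.09). SFXN5 was higher at the initial harvest (19.0 ± 1.54 CPM against 24.2 ± 0.411 CPM, 0.35, adjusted p 0.0183, SE 0.10), a call lost without the initial wild-type replicate 3 (0.28), the initial knock-out replicate 1 (0.34) or the initial knock-out replicate 2 (0.35), with an adjusted p of 0.00763 to 0.108 over the alternatives. RAB11FIP5 overlaps exons of SFXN5 on the same strand. It had 23870 counts over the 12 libraries against 9800 for SFXN5, so the level of SFXN5 is uncertain. SFXN2 was not called (-0.06 initially and 0.21 finally), nor was SFXN4 (0.10 and 0.19).

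**Figure D3:**
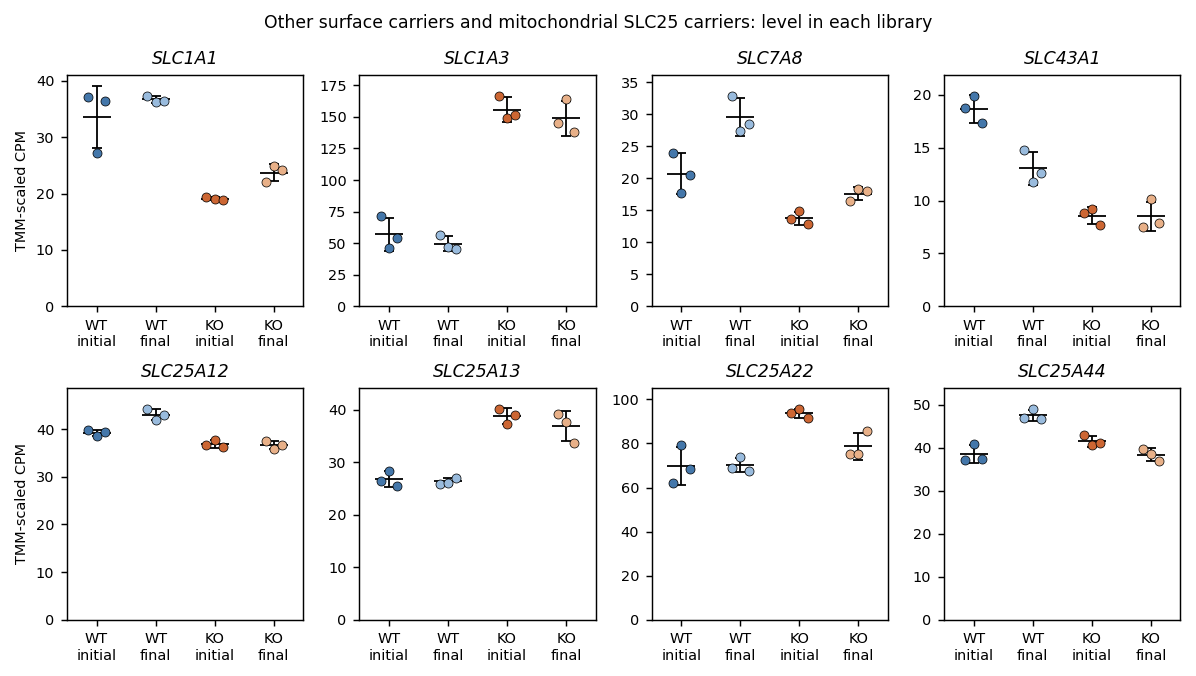
TMM-scaled CPM (vertical, from 0) of 8 carriers outside the known ATF4 targets, in each library of the 4 groups; points are libraries, lines means and bars SDs of 3. SLC1A3 and SLC25A13 are higher in all 6 knock-out libraries, SLC1A1 and SLC43A1 lower, and SLC25A44 is highest in the final wild type.

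Carriers known as ATF4 targets were called lower in both genotype comparisons for 6 of 8 genes, against 6.35% of all tested genes. The 8 are SLC1A4, SLC1A5, SLC3A2, SLC6A9, SLC7A1, SLC7A5, SLC7A11 and SLC38A2; they were listed from the literature with earlier results of these data known, so their count carries no test. All 8 were called lower initially, 6 finally (all but SLC6A9 and SLC7A1) and 8 on average. Of all tested genes 11.3%, 10.2% and 16.1% were called lower in these comparisons. Of the other 29 tested carriers, 6 were lower and 6 higher at the initial harvest, and 8 were lower and 2 higher at the final harvest. Called higher were 8.55% of all tested genes initially and 8.38% finally. Added up, the 8 transcripts came to 7437, 5995 and 5968 CPM in the initial wild-type libraries, 7078, 5687 and 5750.0 in the final wild-type libraries, 4579, 4176 and 4104 in the initial knock-out libraries and 4266, 4719 and 4094 in the final knock-out libraries. The highest knock-out sum lay below the lowest wild-type sum, and replicate 1 was the highest of the 3 in both wild-type groups. SLC38A2 and SLC7A5 make up most of that sum. ATF4 itself had a log2 fold change of -0.30 (adjusted p 0.0436, SE 0.10) at the initial harvest and -0.27 (adjusted p 0.0729, SE 0.10), not called, at the final one; its protein, which is set largely by translation, was not measured here.

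**Figure D4:**
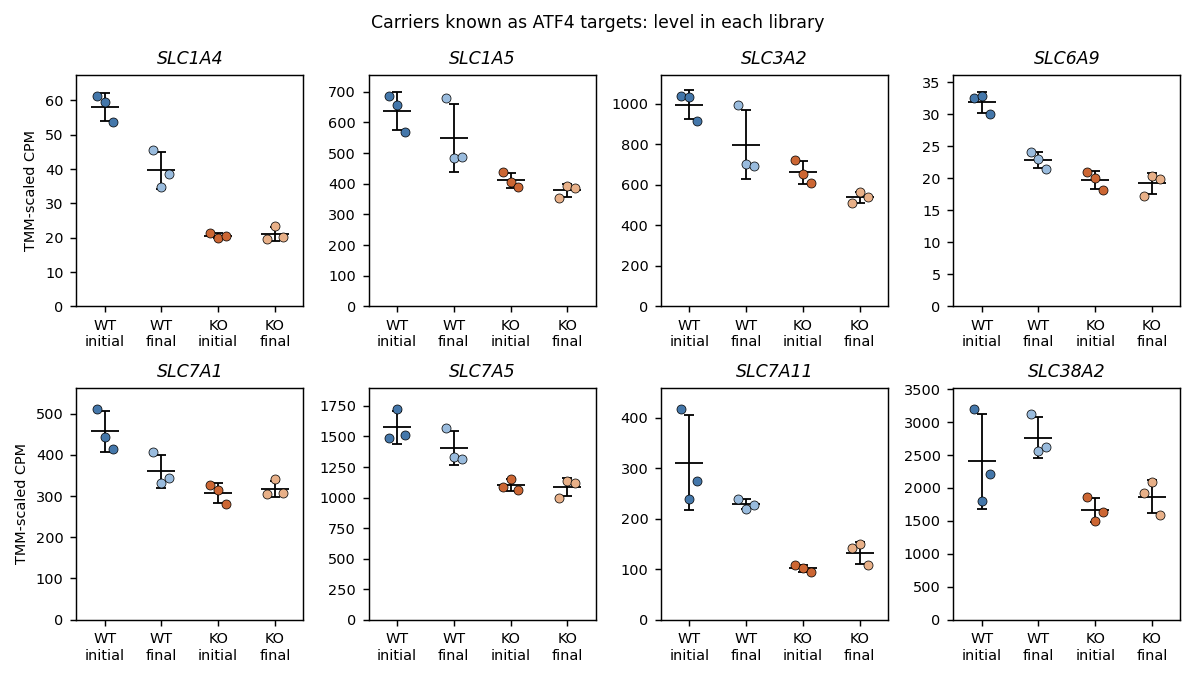
TMM-scaled CPM (vertical, from 0) of the 8 carriers known as ATF4 targets, in each library of the 4 groups; points are libraries, lines means and bars SDs of 3. In SLC1A4 and SLC7A11 the knock-out lies far below both wild-type groups, while SLC6A9 in the final wild type lies between the initial wild type and the knock-out.

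Since all 8 were lower initially, promoter windows were searched for the letters TGATGNAA on both strands, the core of the site bound by ATF4 with C/EBP partners. The windows, from RefSeq on GRCh38.p14, reach from 250 bases before to 50 after each annotated start. Of the 40 members, 33 had at least 1 window, with 60 windows in all; SLC1A2, SLC3A1, SLC6A6, SLC7A2, SLC7A11, SLC38A3 and SLC43A3 had none. The letters were found in 6 of the 60 windows (10%) and in 4 of the 12 windows of ATF4 target carriers (33.3%), against 3.62% of all 35116 windows. Those 12 windows are among the 60, and outside them the letters were found for SLC38A1 and SLC1A3 alone. The target carriers were listed as known ATF4 targets, so neither their share nor the 10% that includes it is independent support. Whether ATF4 acts on them in these cells was not tested. With TGATGCAA, a narrower form, it was 3 of 60 (5%) against 0.866%. Windows of 1 gene can overlap and are not independent, and a match is a run of letters, not a shown site. The 6 matches are printed below 5′ to 3′ on the gene's strand, with the match in capitals.
SLC1A4: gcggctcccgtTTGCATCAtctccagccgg
SLC1A5: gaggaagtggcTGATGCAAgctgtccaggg
SLC3A2: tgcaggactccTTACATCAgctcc
SLC7A1: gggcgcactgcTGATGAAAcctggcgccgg
SLC38A1: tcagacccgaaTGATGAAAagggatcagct
SLC1A3: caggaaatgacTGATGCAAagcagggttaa

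These stretches lie at chr2:64989381-64989410 (plus strand) for SLC1A4, chr19:46784893-46784922 (minus strand) for SLC1A5, chr11:62881725-62881748 (plus strand) for SLC3A2, chr13:29595663-29595692 (minus strand) for SLC7A1, chr12:46266502-46266531 (minus strand) for SLC38A1 and chr5:36596357-36596386 (plus strand) for SLC1A3. In GENCODE 29 those of SLC1A4, SLC1A5, SLC3A2 and SLC7A1 touch an untranslated exon of some transcript of the gene, that of SLC38A1 is intronic in a longer transcript, and that of SLC1A3 lies outside the gene. Counted on the gene's strand from the annotated start, the match of SLC1A5 begins at -97 and that of SLC1A3 at -220 bases. Of the 6 genes, SLC1A4, SLC1A5, SLC3A2, SLC7A1 and SLC38A1 were called lower initially and SLC1A3 higher, so the letters occur in carriers of both directions. SLC1A3 had the largest rise, and the 250 bases before its start (43.2% G and C, chr5:36596338-36596587, GRCh38.p14, plus strand) are shown for that reason, with the same match in capitals.
SLC1A3 upstream: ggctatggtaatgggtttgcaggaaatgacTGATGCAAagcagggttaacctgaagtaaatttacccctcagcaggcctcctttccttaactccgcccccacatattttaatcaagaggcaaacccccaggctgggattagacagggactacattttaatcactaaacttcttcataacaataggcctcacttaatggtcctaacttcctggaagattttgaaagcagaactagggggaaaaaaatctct

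Over 2 months of culture, 5 of the 37 carriers were called in wild-type cells and 0 in knock-out cells. In the wild type, where 6.47% of all tested genes were called (3.05% higher and 3.42% lower), SLC1A4, SLC6A9 and SLC43A1 fell, and SLC7A8 and SLC25A44 rose. Group ranges were separate in 11 carriers, against 22.2% of all tested genes. From the libraries given above, the final wild type lay below the initial one without overlap in SLC1A4 (-0.55, adjusted p 0.0032, SE 0.10), SLC6A9 (-0.48, adjusted p 0.00426, SE 0.09) and SLC43A1 (-0.52, adjusted p 0.0171, SE 0.12). It lay above without overlap in SLC7A8 (0.51, adjusted p 0.00994, SE 0.11) and SLC25A44 (0.30, adjusted p 0.021, SE 0.07). The falls of SLC1A4 and SLC6A9 were called under all 18 alternatives. That of SLC43A1 was lost without the final wild-type replicate 2 (-0.44) or the final wild-type replicate 3 (-0.49), the rise of SLC7A8 without the initial wild-type replicate 3 (0.50), and the rise of SLC25A44 without the initial wild-type replicate 1 (0.28), the initial wild-type replicate 3 (0.28), the final wild-type replicate 2 (0.29) or the final wild-type replicate 3 (0.32). With only the groups compared SLC7A8 (adjusted p 0.0593) and SLC25A44 (0.114) were lost, and SLC25A44 also without a filter (0.0931). Adjusted p ran from 0.000937 to 0.106, from 0.000396 to 0.0593 and from 0.00165 to 0.114 over the alternatives. The count was 8 without the final wild-type replicate 1, which added SLC1A5 (-0.40), SLC3A2 (-0.52) and SLC7A1 (-0.44), and 3 without the final wild-type replicate 2, the final wild-type replicate 3 or the initial wild-type replicate 3. With all 12 libraries SLC7A1 was called lower by DESeq2 (adjusted p 0.0181), with the block (0.0468) and without a filter (0.0175). Without a filter SLC7A11 (-0.44, adjusted p 0.000593) and SLC3A2 (-0.32, adjusted p 0.0322) were called lower too. SLC7A11 was also called lower without the initial wild-type replicate 2 (-0.60, adjusted p 0.0231).

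In the knock-out 0 carriers were called over time by edgeR, where 1.48% of all tested genes were called, and 0 by DESeq2. At an unadjusted p under 0.05 edgeR gave 6 carriers. The share of all tested genes at that unadjusted threshold was not counted. Group ranges were separate in 9 carriers, against 23.2% of all tested genes. The values of the 5 carriers just named were 0.03 for SLC1A4, -0.04 for SLC6A9, -0.01 for SLC43A1, 0.36 for SLC7A8 and -0.11 for SLC25A44. Without the initial wild-type replicate 2, which enters through the shared estimate of spread, SLC1A1 was called higher over time in the knock-out (0.31). With only the knock-out groups fitted, SLC7A8 (adjusted p 0.0389) and SLC7A11 (0.0383) were called higher, and SLC7A11 also without a filter (0.0207). Whether the time change differed between genotypes was tested as the interaction. There edgeR called 0 carriers at an adjusted p under 0.05, against 1.28% of all tested genes. At an unadjusted p under 0.05 it gave 8 carriers, and the share of all tested genes at that threshold was not counted. DESeq2 called 3: SLC1A4, SLC7A11 and SLC25A44. The edgeR interaction was 0.59 (adjusted p 0.0674, SE 0.15) for SLC1A4, 0.82 (adjusted p 0.105, SE 0.23) for SLC7A11 and -0.42 (adjusted p 0.0727, SE 0.10) for SLC25A44. Without a filter on low counts SLC1A4 (adjusted p 0.0153) and SLC7A11 (3.45e-06) were called. SLC1A4 was also called without the final wild-type replicate 1 (0.71), and SLC7A11 (0.98) and SLC25A44 (-0.46) without the initial wild-type replicate 2; adjusted p ran from 0.0102 to 0.208, from 3.45e-06 to 0.262 and from 0.00598 to 0.191 over the alternatives. In 8 of the 11 carriers lower at both harvests the initial difference was the larger, but for none of them was that change of the difference called by edgeR.

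Other genes of amino acid supply were described from lists chosen with earlier results known. Of 31 further amino acid carriers, 15 passed the filter; 2 were higher at the initial harvest (SLC25A15, the ornithine carrier of mitochondria, 0.36, and SLC25A18, a glutamate carrier, 0.83) and 1 was lower at the final harvest (SLC66A1, the lysosomal exporter of cationic amino acids, -0.45). Those shares, 13.3% and 6.67%, were below the 19.9% and 18.5% called over all tested genes. Their median log2 fold change was 0.09 and 0.07. SLC25A18 was scarce, at 0.464 to 1.24 CPM and 19 to 49 counts in a library. Of 23 genes of the amino acid response, the pathway from the eIF2 kinases through ATF4 to its targets, 13 were lower and 1 higher at the initial harvest (60.9% called, against 19.9% of all tested genes) and 10 were lower at the final harvest (43.5% against 18.5%), with medians of -0.51 and -0.39 beside 0.00 for all tested genes. Its lowest values on average were those of CHAC1, a glutathione-degrading enzyme (-2.42), and ASNS, asparagine synthetase (-1.45), and its highest were those of ATF5 (0.26) and EIF2AK2 (0.18, not called). Those called lower at both harvests were CHAC1, ASNS, TRIB3, DDIT4, PSAT1, PHGDH, CEBPB, DDIT3 and STC2. In the wild type 9 of these 23 genes fell over time and 0 rose, where 3.42% of all tested genes fell. In the knock-out 1 fell, or 4.35% of the list, where 1.48% of all tested genes were called in either direction.

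Among 34 genes of lysosomal amino acid sensing, which set mTORC1 activity, 5 were lower and 1 higher at the initial harvest and 3 lower and 1 higher at the final harvest. These shares, 17.6% and 11.8%, were not above the 19.9% and 18.5% called over all tested genes. The members called at both harvests were SESN1, a leucine-pathway sestrin and p53 target (0.84 and 0.48), the arginine sensor CASTOR1 (-0.66 and -0.88) and its paralog CASTOR2 (-0.33 and -0.51). Among 12 NRF2 pathway genes, a list that bears on SLC7A11 because NRF2 is also known to induce it, 11 were tested; 4 were lower and 1 higher at the initial harvest and 5 lower at the final harvest (45.5% called at each, against 19.9% and 18.5% of all tested genes), with medians of -0.26 and -0.27. GCLM, a glutathione synthesis subunit and common NRF2 target, was not called (0.08 and 0.03), while TXNRD1, a thioredoxin reductase, was lower at both harvests (-0.47 and -0.46), as was NFE2L2, which encodes NRF2 (-0.40 and -0.26). The part of either pathway in the carrier differences was not tested.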

How the data were processed

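Poly-A RNA libraries were sequenced. Values are the authors' whole-number counts for each gene in each of 12 libraries, as deposited and not normalized, per the file headers; STAR, featureCounts, Subread and the build hg38 are named without versions, per the submitters' processing notes. The deposited gene length (bases of exon) was used to divide levels by length. Annotation release, strand setting and multi-mapping reads are not given in the sources used here. IDs numbering 37318 occur with the same version in GENCODE 29, all with the same coordinates, so GRCh38 positions are given; 1 gene broken over 5 lines was left out. Symbols were found for 60592 of 60648 genes.

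The model was edgeR 4.0.16 (with limma 3.58.1 under R 4.3.3), after filterByExpr by group and TMM scaling, with 1 robust quasi-likelihood model of 12 libraries and 4 group means; p-values were adjusted by Benjamini-Hochberg over 18289 genes and calls made under 0.05. There were 6 comparisons. Standard errors are the log2 fold change divided by the root of F, and intervals are 95%. The fit was tested on simulated counts. Alternatives were RLE factors, no filter, DESeq2 1.42.0, only the groups compared, a replicate block and each library left out; leaving out both wild-type libraries numbered 1 was added after the data were seen. Members and lists were chosen with earlier results of these data known. All 40 members are accounted for; each library is given for those called at both harvests or over time. Of the other lists, genes called at both harvests, those with the highest and lowest average differences, and ATF4 could be named; GCLM and the genes that make up counts of 2 or fewer were chosen after their values were seen.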

Additional observations from a re-analysis of the deposited data

Results flagged for a closer look

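SLC25A44, the mitochondrial carrier of branched-chain amino acids, stood out because its 3 final libraries lay above its 3 initial libraries in the wild type and below them in the knock-out. The means went from 38.5 ± 2.05 CPM to 47.6 ± 1.31 CPM in the wild type and from 41.5 ± 1.22 CPM to 38.4 ± 1.48 CPM in the knock-out (SD, n = 3). The interaction, which tests the difference between these time changes, was -0.42 (adjusted p 0.0727, SE 0.10) in edgeR's quasi-likelihood test over all genes and did not pass; DESeq2 called it (adjusted p 0.00598). Of the 37 tested carriers, SLC25A44 was the only one (2.7%) with separate groups in opposite directions, a pattern that 293 of all 18289 tested genes (1.6%) showed.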

How the results depend on the processing

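Over 18 alternatives, the genotype counts stayed within 1.5 times of 20 (initial), 16 (final) and 23 (average), from 17 to 21, 13 to 22 and 22 to 26. Of the calls, 16 of 20 initial, 13 of 16 final, 22 of 23 average and 2 of 5 wild-type time calls were kept under every alternative, and no called direction reversed; signs of values called in neither fit were not followed. Over time in the wild type (5 carriers), the count was 3 with only the groups compared, 8 without both wild-type libraries numbered 1, and 3 to 8 with 1 library left out. Over time in the knock-out (0), it was 1 without a filter on low counts, 2 with only the groups compared, 3 without both wild-type libraries numbered 1, and 0 to 1 with 1 library left out. In the interaction (0), it was 2 without a filter, 3 with DESeq2, 1 without both wild-type libraries numbered 1, and 0 to 2 with 1 library left out. Leaving out single libraries brought SLC1A2, SLC6A6, SLC38A5 and SFXN4 past the threshold on average. The cause of these shifts was not tested. The labels give shared replicate numbers but no shared batch; deviations of same-numbered libraries correlated from -0.527 to 0.446, over 0.1 in 8 of 18 pairs, and 14 of 36 comparisons matched a library best to its own number. With the replicate number as a block the counts were 21, 16, 6, 0, 0 and 23 for the initial, final, wild-type time, knock-out time, interaction and average comparison. The block added SLC38A9 initially, exchanged SLC25A12 for SLC38A9 finally and added SLC7A1 over time in the wild type; it changed no other call. The narrower motif reduced the matching windows from 6 to 3. SLC3A1, SLC6A14 and SLC38A4 had at most 4 counts in a library and were not tested in the main fit. The fit without a filter took in all 40 members, but at such counts no statement on a difference is made for these genes.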
